A study of Solanum lycopersicum with 4 samples.

Results

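MACROCALYX (MC) is a MADS-box transcription factor gene of the APETALA1 (AP1) clade, followed here in the tomato (Solanum lycopersicum) shoot apical meristem as it passes from making leaves to flowering. It was taken as the row whose identifier begins with Solyc05g056620, which is 1 gene of the 34722 in the table. It was selected on its normalised counts in these same 4 libraries, namely its stage difference and its uneven vegetative replicates, so its own values are given as a description, without a test.

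MADS-box proteins bind DNA as dimers and larger complexes, and members of the AP1 and FRUITFULL (FUL) lineages help give a meristem its floral identity. In tomato, MC is known for restraining sepal growth, for keeping the inflorescence from returning to leaf production, and for acting with the MADS-box protein JOINTLESS in forming the abscission zone of the flower stalk. FUL-type genes are known to promote the transition to flowering, and SEPALLATA (SEP) proteins join other MADS-box proteins into complexes in flowers.

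All libraries came from wild-type meristems of greenhouse seedlings grown for 2 to 12 days, dissected after acetone fixation. The 2 vegetative libraries, C and D, were made after the meristem had produced 6 leaves, and the 2 transitional libraries, A and B, at the passage to flowering. The titles give these letters, whereas the table's columns letter the vegetative libraries A and B. The sources used here do not say how many apices went into a library or whether replicates came from separate plants, so spread between replicates may be technical. The labels carry no treatment or transgene, and the late termination mutant named in the study's design was not analysed here.

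Reads in genes numbered 16141074 in vegetative C and between 21977345 and 23043526 in the other libraries. Values are the authors' normalised counts, which are reads divided by a size factor for each library. Each library was a bulk sample of a dissected apex, so more cells expressing a gene and more RNA per cell cannot be told apart. Of 4 listed meristem, boundary and axillary genes, all had reads in every library, at 203 to 3821 normalised counts in vegetative and 270 to 4309 in transitional apices. These identifiers, like those of every gene list below, were recalled from published nomenclature, with no name table at hand to check them.

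The name MC for this identifier has the same limit. None of the table's identifiers matched the RefSeq gene table of assembly SLM_r2.1 (0 matches), and the deposited table pairs no identifier with a name. RefSeq lists a gene with the symbol MADS-MC on chromosome 5, the 542nd of 2034 protein-coding genes there by start. The entry that follows it joins MADS-MC with RIN, a MADS-box gene known for its part in fruit ripening, and the next is RIN itself. The identifier Solyc05g056620.1, by contrast, was the last of the 2418 chromosome 5 identifiers in the table. Identifier order and the RefSeq map therefore put the gene at different places, and whether numbering or naming is the source was not settled here. The 5 identifiers listed just before it had log2 differences between stages of -0.22 to 0.75, and limma called none of them (0 higher and 0 lower), with 0 below an unadjusted p of 0.05 and 0 called by edgeR or DESeq2.

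MC stood at 138 normalised counts in vegetative C and at 9.78 in vegetative D, against 2588 in transitional A and 1525 in transitional B. Both transitional values lay above both vegetative values, as in 4907 (25%) of the 19607 genes averaging 5 or more normalised counts. The reads behind them were 100 in C, 10 in D, 2553 in A and 1507 in B. Exact 95% Poisson intervals, which cover counting error only, were 112 to 168 normalised counts in C and 4.69 to 18.0 in D. In A the interval ran from 2488 to 2690 and in B from 1449 to 1604. None of the 4 intervals overlapped another. As a share of all reads in genes, MC made up 6.20 CPM (reads scaled to the library's total) in C, 0.434 in D, 116 in A and 68.2 in B.

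**Figure D1:**
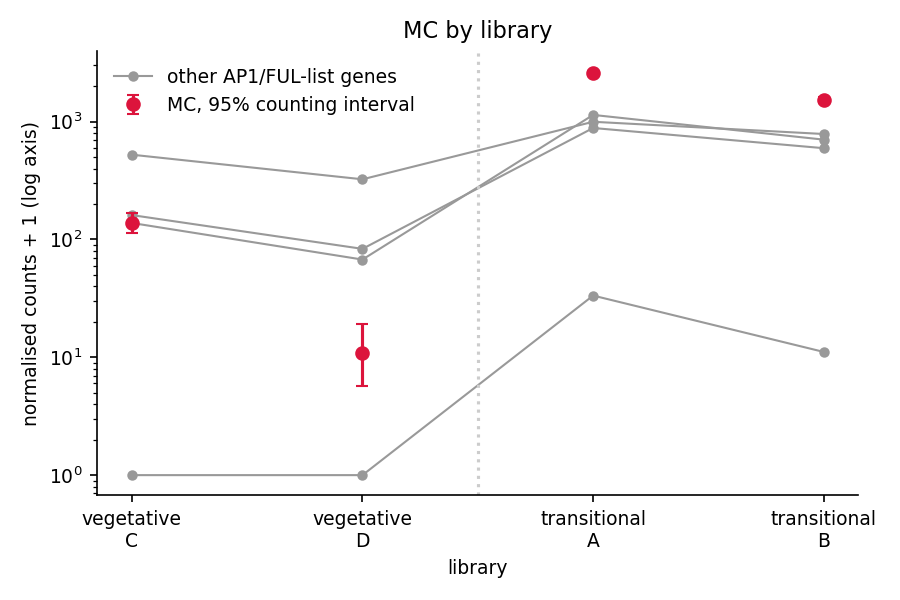
Normalised counts plus 1 on a log axis for MC (red, with exact 95% counting intervals) and for the 4 other genes of the AP1/FUL list (grey, joined across libraries), by library. MC stands at 138 in C, 9.78 in D, 2588 in A and 1525 in B; levels are per gene and not per length, so heights of different genes are not compared.

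The size of the difference depended on which libraries were set against each other. Transitional A stood 18.8-fold above vegetative C (exact 95% counting interval 15.4 to 23.1) and 265-fold above vegetative D (144 to 552). Transitional B stood 11.1-fold above C (9.02 to 13.7) and 156-fold above D (84.5 to 326). The smallest and the largest of these folds thus both came from the same gene and differed mainly by the vegetative library used. The vegetative mean was 73.9 ± 90.6 normalised counts (SD, n = 2) and the transitional mean 2056 ± 752 (SD, n = 2). The vegetative SD was larger than its own mean.

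Averaging mattered for the same reason. The ratio of arithmetic means was 27.8, in which vegetative C supplies most of the denominator. The ratio of geometric means was 54.1, with a vegetative geometric mean of 36.7. On the log2(value + 1) scale the difference was 5.68, with an SD of 2.61 in the vegetative group and 0.54 in the transitional group (n = 2 each). It was 7.53 without vegetative C and 3.84 without vegetative D. Without transitional A it was 5.30, and without B 6.06.

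MC moved from the lower part of the expressed genes to the upper part. It was the 13638th gene by level in vegetative C, of 21588 genes with a read, and the 18394th of 22127 in D. In transitional A it was the 1942nd of 22476 and in B the 3706th of 22360. By group mean it went from 15161st to 2592nd of all 34722 genes. These ranks order reads per gene, not corrected for gene length.

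By fold, on the log2(value + 1) scale, MC ranked 13th of the 19607 genes tested, those averaging 5 or more normalised counts. None of the 12 genes above it reached its transitional mean or its vegetative mean. Among the 5514 genes with a transitional mean of at least 1000 normalised counts it ranked 2nd. Among the 3020 genes with a vegetative mean within 2-fold of its own it ranked 1st, at 5.68 where the median of these genes was 0.04 and their 95th percentile 0.97. By the plain difference of group means it ranked 57th of all genes. The fold rank moved with the vegetative library kept, to 4th without C and 83rd without D.

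**Figure D2:**
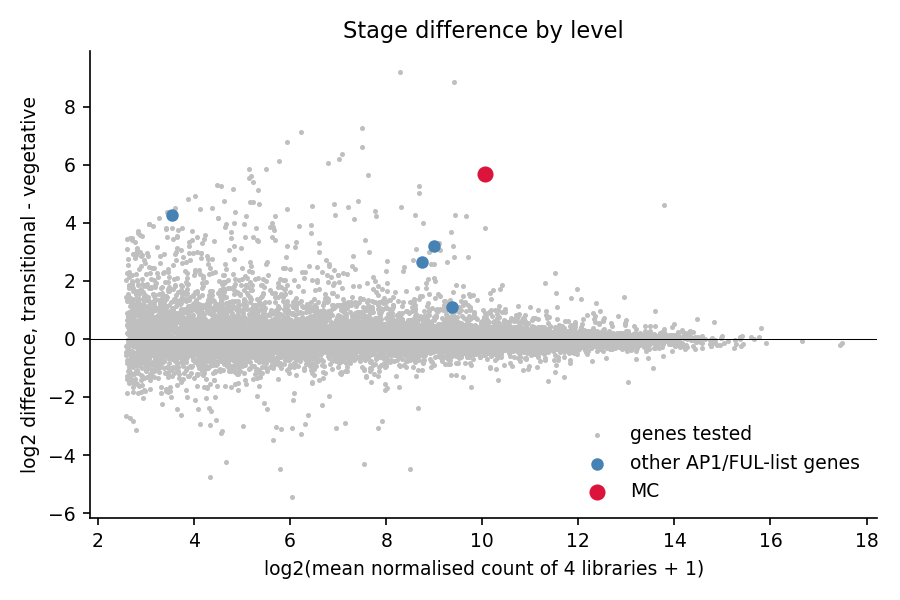
Log2 difference between transitional and vegetative meristems, on log2(value + 1), against the log2 mean level over the 4 libraries for all 19607 genes tested, with the other AP1/FUL list genes in blue. MC (red) stands at 5.68, and the genes with larger differences lie to its left, at lower levels.

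The vegetative replicates differed more for MC than for almost any gene of its level. Vegetative C stood 14.1-fold above D (exact 95% counting interval 7.36 to 30.3), or 3.69 on the log2(value + 1) scale. Among the 3020 genes of like vegetative level the median absolute difference between C and D was 0.21 and the 95th percentile 0.69. MC had the 6th largest of these, and it was the 1 gene among them in which C exceeded D by so much. Over all 19607 genes tested it ranked 27th, and C exceeded D by at least as much in 3 genes, MC included. The other 2 had lower vegetative means, and limma called neither. Their reads in C and D were 29 and 2 in 1 gene and 9 and 0 in the other, which is on the list of floral transition regulators below. In both genes the transitional values lay above the vegetative ones, as in 4907 (25%) of all genes tested.

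On the same scale vegetative C lay 3.69 above vegetative D and 3.46 below transitional B. C was therefore about as far from its own replicate as from the nearer transitional library. From D to the transitional mean the distance was 7.53, and C covered 49.0% of it. Between the transitional replicates MC differed by 0.76, with A 1.70-fold above B (1.59 to 1.81). Of the 4356 genes with a transitional mean within 2-fold of MC's, 27 differed by at least as much between A and B, MC included. The median there was 0.11 and the 95th percentile 0.38.

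**Figure D3:**
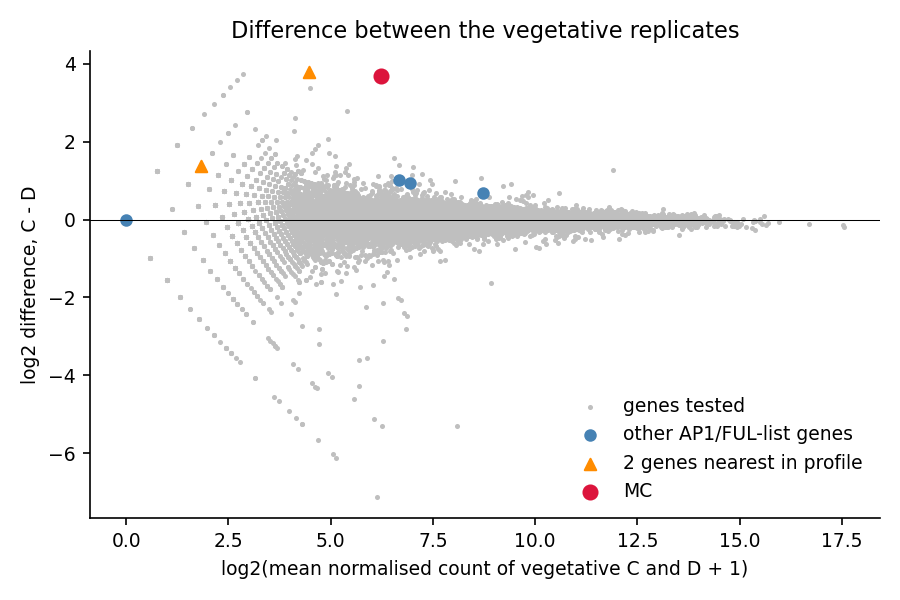
Log2 difference between vegetative replicates C and D against their log2 mean level for the 19607 genes tested, on log2(value + 1). MC (red) stands at 3.69, above the other genes of its level, while the AP1/FUL list genes (blue) with vegetative reads stand at 0.69 to 1.03; orange triangles mark the 2 genes nearest to MC in profile.

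A higher level in C than in D was not shared by the genes that rose at the transition as a whole. Of the 529 genes called higher, 240 (45.4%) stood higher in C than in D, against 49.1% of all genes tested, and the median difference was -0.01. C exceeded D by 2-fold or more in 20 of the 529 (3.78%), against 251 (1.28%) of all 19607 genes tested. D exceeded C by as much in 11 of the 529, against 389 of all genes tested. Among the 12 genes with a larger stage difference than MC, 7 stood higher in C. Of these, 6 did so by 2-fold or more, and none of the 12 stood as much higher in D. Few reads set such differences, for example 4 in C and 1 in D, 3 and 1, 3 and 0, or 1 and 0. Another of the 12 stood higher in C on 2 reads in each library, through the size factor alone. A gene with uneven replicates is less likely to be called, so these shares describe the called genes and are not a test.

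The other listed AP1/FUL clade genes rose as well, at log2 differences of 1.10 to 4.27 where that of MC was 5.68. All 4 listed members other than MC were called higher by limma on log2(value + 1), at a Benjamini-Hochberg adjusted p under 0.05 over all genes. Of all genes tested, 2.70% were called higher. However, 1 of the 4 averaged under 5 normalised counts in the vegetative group and passed the filter through its transitional values alone. It had to differ, so its call is no support for a rise of the clade. The limma adjusted p-values of the 4 ran from 0.00529 to 0.0438. The 2 called most firmly stood at 137 and 160 normalised counts in C, 66.5 and 82.2 in D, 1139 and 882 in A, and 702 and 594 in B. In both, C stood above D and A above B, in the same order as for MC. Their log2 differences were 3.22 (SE 0.35) and 2.65 (SE 0.31).

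The third member went from 523 and 323 normalised counts in C and D to 996 and 784 in A and B, a log2 difference of 1.10 (SE 0.22). The fourth was without a read in C and D and had 32.4 normalised counts in A and 10.1 in B. With 3 reads allowed over both vegetative libraries together as a floor, it was at least 12.4-fold higher. The 3 members with vegetative reads stood 0.69, 0.95 and 1.03 higher in C than in D on the log2 scale, in the direction of MC and by less. Over the 4 members, the fourth included, the median log2 difference between stages was 2.93, against 0.01 over all genes tested. The 3 members with vegetative reads stood at 3.22, 2.65 and 1.10. With either vegetative library left out, limma called 0 genes in all (1577 below an unadjusted p of 0.05 without C and 1867 without D), and so 0 members of this and every other list. The fourth member passed the filter through its transitional values alone. With all libraries, limma called 3 of the 4 at a pseudocount of 5, and 3 under a filter of 1 CPM in 2 libraries. Limma called 2 of the 4 without transitional A, and edgeR on the recovered reads called 2.

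SEP clade genes were near silence in the vegetative libraries. Of 6 listed identifiers 3 were called higher, where 2.70% of all genes tested were, with log2(value + 1) differences of 4.46 to 6.19. Of the 5 that passed the filter, 4 averaged under 5 normalised counts in the vegetative group and passed through their transitional values alone, 2 of the 3 called members among them. A member admitted in that way had to differ, so the share called is no support for a rise of the clade. The 5 stood between 0 and 8.28 normalised counts in vegetative libraries and between 2.02 and 341 in transitional ones, so few reads set their vegetative values. On that scale 2 of them exceeded MC. The untested identifier had at most 2.02 normalised counts in any library. Of the 5, 4 stood higher in C than in D, on reads of 1 and 0, 1 and 0, 6 and 2, and 2 and 2. The last of these differed through the size factor alone, so the order of C and D in this list is uncertain. The 1 gene listed for the AGL6 clade, a sister lineage of SEP, stood at 0 and 0.978 in C and D and had 19.3 and 18.2 in A and B. It too passed the filter through its transitional values alone; limma called it higher, and it was not called by DESeq2 or under a filter of 1 CPM in 2 libraries.

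Genes of the SVP and SOC1 clades, which hold flowering repressors and integrators and include JOINTLESS, ranged widely in level before the transition, from 11.0 to 4756 normalised counts in the vegetative libraries. Of 7 listed members limma called 0 higher, with 2 at an unadjusted p under 0.05 in that direction, and 1 lower, where 2.70% and 1.19% of all genes tested were called. DESeq2 called 1 higher and edgeR 0, limma called 1 higher without transitional A, and 2 lower without B. Their median log2 difference was 0.13, and the largest was 0.97. Summed over the list the level was 11097 and 10115 normalised counts in C and D and 11538 and 11025 in A and B. The member that fell went from 2522 and 2218 in C and D to 1366 and 1605 in A and B (log2 difference -0.68, SE 0.11, limma adjusted p = 0.0185).

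Regulators of the floral transition and of inflorescence form, a list of 7 identifiers recalled for meristem identity, florigen-family and inflorescence genes, moved unevenly. Of the 7, 6 were tested. Limma called 2 higher and 0 lower, where 2.70% and 1.19% of all genes tested were called. At an unadjusted p under 0.05 in the same fit, 4 were higher and 1 lower, against 1919 and 1551 of all 19607 genes tested. The genes not called stood at log2 differences of 2.95, 2.90, 0.16 and -0.31. Few reads set the first 2 of these, with 9 and 0, and 0 and 2, in C and D. Of the 6, 2 passed the filter through their transitional values alone, 1 of them called. Of the 2 called higher, 1 went from 183 and 71.4 normalised counts in C and D to 1180 and 778 in A and B (log2 difference 3.05, SE 0.40, limma adjusted p = 0.00963). Its order of libraries was that of MC, with C above D by 1.35 on the log2 scale. Over the 6 tested genes of the list, C stood above D in 3, with a median log2 difference of 0.01. The other gene called higher, admitted by its transitional values, had no read in C or D. It stood at 106 and 30.4 in A and B, at least 39.8-fold higher by the same floor. Of the 4 listed meristem, boundary and axillary genes, 1 rose, against the same 2.70%, by 1.37 on the log2 scale (SE 0.19, limma adjusted p = 0.0119).

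**Figure D4:**
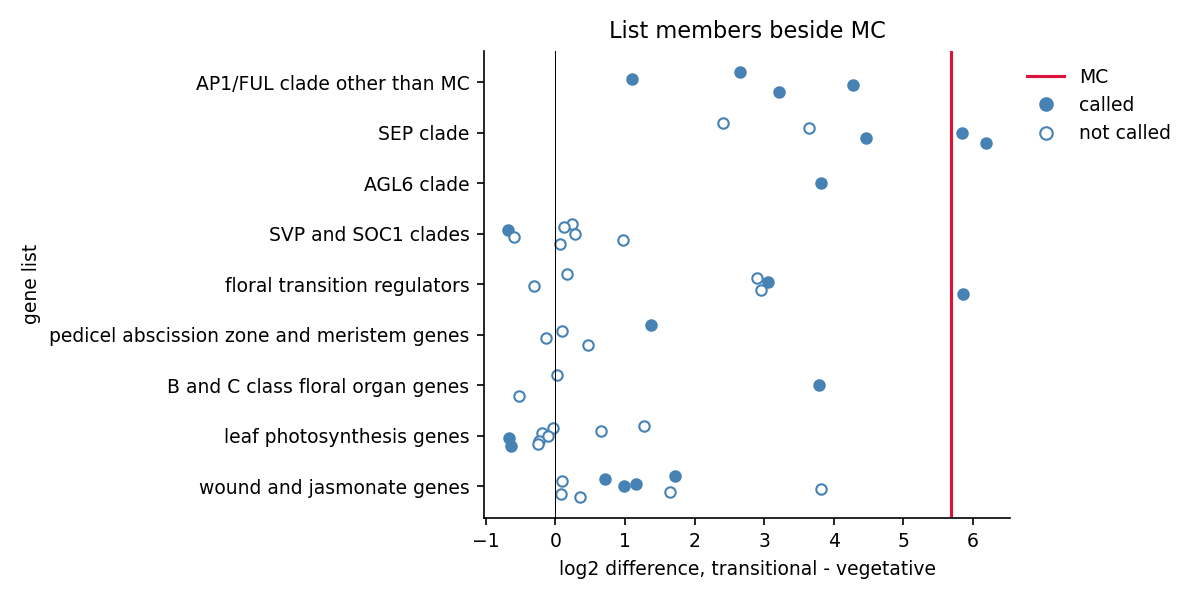
Log2 difference between stages, on log2(value + 1), for each tested member of 9 gene lists (filled points called by limma, open points not called), with MC as a red line at 5.68. All 4 AP1/FUL genes and 3 of the 6 listed SEP genes (5 plotted) are called higher. Of these called genes, 1 AP1/FUL gene and 2 SEP genes passed the filter through their transitional values alone. SVP and SOC1 genes lie between -0.68 and 0.97.

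The 2 genes nearest to MC in profile over the 4 libraries were Solyc09g005070.1 and Solyc06g062370.2. Likeness was the Euclidean distance between log2(value + 1) profiles after subtracting each gene's mean. It used the same 4 values by which MC was selected, so a like stage difference and a like excess in C follow from the choice. Solyc09g005070.1 lay at a distance of 0.96, where the median over 19606 genes was 6.28, and it was the 1 gene within a distance of 1. It stood at 40.0 and 1.96 normalised counts in C and D, from 29 and 2 reads, and at 427 and 204 in A and B. C exceeded D by 3.79 on the log2 scale, and it was one of the other 2 genes with so large an excess in C. Solyc06g062370.2, at a distance of 1.67, stood at 4.14 and 0.978 in C and D, from 3 reads and 1 read, and at 269 and 163 in A and B. In all, 10 genes lay within a distance of 2, and 2 of those belonged to the SEP list. These 2 had 1 and 0 reads, and 6 and 2 reads, in C and D. The files name neither of the 2 nearest genes.

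Markers of other tissue and of handling were read beside MC. Of 8 identifiers recalled as B and C class genes, a group needed for petal, stamen and carpel identity, 4 had no read in any library and 1 had 1 read in all. Whether each of the 8 belongs to these classes was not checked. Of the 3 tested, limma called 1 higher, where 2.70% of all genes tested were. That gene stood at 0 and 0.978 normalised counts in C and D and at 22.3 and 15.2 in A and B. It passed the filter through its transitional values alone, and it was not called by DESeq2, without transitional A, or under a filter of 1 CPM in 2 libraries. The list summed to 833 and 798 in C and D and to 763 and 847 in A and B. Leaf photosynthesis genes, a sign of leaf tissue left on the apex, summed to 10176 and 11610 in C and D and to 12388 and 7299 in A and B. Of 10 listed, 1 had no read, and of 9 tested 2 fell (1.19% of all genes) and limma called 0 higher, with 0 at an unadjusted p under 0.05 in that direction and 0 by edgeR and DESeq2. Without transitional B 2 were called higher.

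In C against D, 1 of 9 leaf photosynthesis genes stood higher in C, and the list's median log2 difference was -0.09. In A against B all 9 stood higher in A, as MC did, by a median log2 difference of 0.68. A also stood higher than B in 52.6% of all genes tested and in 70.5% of the 529 genes called higher. It did so in all 12 genes with a larger stage difference than MC, by a median log2 difference of 0.94. Wound and jasmonate genes, markers of damage during handling, rose in 4 of 9 tested members, where 2.70% of all genes tested rose, and 1 of the 10 listed had no read. Their sum was 7264 and 7647 in C and D and 16563 and 12061 in A and B, and 3 of 9 stood higher in C. The median log2 difference of the wound and jasmonate genes between C and D was -0.05. The part of leaf tissue or handling in MC's stage difference, or in its uneven vegetative replicates, was not tested.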

How the data were processed

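RNA sequencing measured gene expression in 4 libraries of wild-type tomato meristems. The deposited values are a normalised signal, the authors' gene counts after division by a size factor for each library. Per the submitters' processing notes the tools were TopHat2 2.0.10, HTSeq 0.6.1p1 and DESeq2 1.6.3. Build, annotation, strand and treatment of near-identical copies were not given in the sources used here, so reads shared between close MADS-box genes are uncertain. In every library 100% of values were whole multiples of 1 step (relative tolerance 1e-06), from which reads were recovered.

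limma 3.58.1 (trend, R 4.3.3) was fitted on log2(value + 1) to the 19607 genes averaging 5 or more, with group as the only term, 2 residual and 5.18 prior degrees of freedom. Genes were called at a Benjamini-Hochberg adjusted p under 0.05 over all genes tested. MC carries no test. edgeR 4.0.16 on the recovered reads called 485 genes higher and 207 lower, against 529 and 233 by limma, and DESeq2 1.42.0 called 591 and 316. Other scalings, filters and pseudocounts, and leaving out each library, were also run. Intervals are exact 95% Poisson or conditional binomial (SciPy 1.17.1) and cover counting error only. A gene at 0 could have stood at up to 3 reads, or 0.130 to 0.186 CPM.

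MC and the lists were chosen with earlier results of these data known. The named genes are MC and the 2 nearest in profile, since identifiers could not be paired with names. Of the 5 identifiers to be read on either side of MC, 5 came before it and 0 after.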

Additional observations from a re-analysis of the deposited data

How the results depend on the processing

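MC stayed higher in transitional libraries in every setting run, and its log2 difference lay between 4.80 (DESeq2) and 5.72 (pseudocount 0.5) with all libraries, where edgeR gave 4.96. Leaving out 1 library gave 3.84 to 7.53. The count models compare arithmetic means, which vegetative C dominates. Its rank by fold, 13th on log2(value + 1), was 23rd with a pseudocount of 0.5, 5th with one of 5, 59th by edgeR and 63rd by DESeq2. Leaving out 1 library gave ranks from 4 to 83. DESeq2, TMM and library size scaling left it at 13. With no filter, limma's calls over all genes were 6 higher and 1 lower, with no member of any list. With each library left out in turn they ranged from 0 to 776 higher and from 0 to 478 lower. The 0 came without vegetative C (1577 genes below an unadjusted p of 0.05) or without D (1867), and the lone library was assumed to vary like the other group. No list member called with all libraries changed direction. The 10 reads of MC in vegetative D limit every fold set against that library. No paired analysis was possible because the titles give the groups no shared replicate letter.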
